A study of Mus musculus with 7 samples.

Results

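Clec4f and Cd207 are neighbouring lectin genes on mouse chromosome 6, and these 2 members of the 20354 genes counted were read in all 7 libraries made from liver nonparenchymal cells, the fraction left once hepatocytes are removed. They were chosen by their read counts, which moved in opposite directions between the groups, and because the Clec4f promoter drives Cre in this study. Their difference between the groups is therefore given as a description, with no test. Both are protein-coding genes on the minus strand (ENSMUSG00000014542.3 and ENSMUSG00000034783.7), and 0 annotated genes overlap either of them in GENCODE M21, so that their reads are not shared with a gene on the other strand there.

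The 4 wild-type (WT) and 3 knockout libraries came from untreated C57BL/6J mice at 2 months of age. The knockout line, of C57BL/6 background, carries floxed Shp2 alleles together with a Clec4f-Cre transgene in the heterozygous state. Cre recombinase made in Kupffer cells, which are macrophages resident in the liver sinusoids, then cuts Ptpn11, the gene of the phosphatase Shp2. The labels do not say whether the transgene sits within Clec4f itself or elsewhere, nor whether the WT mice carried Cre or floxed alleles. The genotype field names Shp1, Shp2 and Shp3 in turn for the 3 knockout libraries, and their titles, which all name Shp2, were followed.

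C-type lectins are receptors that bind sugars through a calcium-dependent domain. Clec4f encodes a galactose-type lectin found in mice on Kupffer cells, and it is used as a marker of resident Kupffer cells because monocyte-derived macrophages lack it when they first enter the liver. Cd207 encodes langerin, a mannose-type lectin known from the Birbeck granules of Langerhans cells in the skin and also made in mice by part of the type 1 conventional dendritic cells (cDC1). Shp2 relays signals from growth factor and cytokine receptors to the RAS-ERK pathway. The comparison asks how loss of Shp2 in Kupffer cells alters gene expression in the whole nonparenchymal fraction, where fewer cells of a type and less RNA per cell cannot be told apart.

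The sequences before the starts of both genes are shown so that the separate starts of the neighbours can be compared. They are the 250 bases before each start in RefSeq's promoter table (GRCm38.p6), at chr6:83656117-83656366 for Clec4f and chr6:83677858-83678107 for Cd207, both on the minus strand, printed 5′ to 3′ with matches to any of 9 short motifs in capitals.
Clec4f: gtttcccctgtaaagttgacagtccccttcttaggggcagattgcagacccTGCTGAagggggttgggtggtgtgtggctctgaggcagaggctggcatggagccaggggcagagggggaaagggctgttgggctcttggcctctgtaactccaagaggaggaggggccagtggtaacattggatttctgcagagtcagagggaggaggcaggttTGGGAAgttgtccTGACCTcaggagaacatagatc
Cd207: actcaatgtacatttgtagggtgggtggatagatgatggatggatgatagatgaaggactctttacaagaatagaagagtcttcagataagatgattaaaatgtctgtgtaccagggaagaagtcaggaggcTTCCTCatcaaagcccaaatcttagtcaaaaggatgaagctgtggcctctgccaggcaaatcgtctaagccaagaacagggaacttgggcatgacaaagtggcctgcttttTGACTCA
The capitals in the Clec4f sequence mark TGCTGA, a MAF half-site, beginning 199 bases before the start, TGGGAA, the core of the Notch-linked factor RBPJ, at 35 bases, and AGGTCA, a nuclear receptor half-site, at 22 bases on the opposite strand. Of 27018 genes with such a stretch of the same length, 15.8%, 21.5% and 13.8% hold these letters on either strand. The capitals in the Cd207 sequence mark GAGGAA, the core of the macrophage factor PU.1, beginning 118 bases before the start on the opposite strand, and TGANTCA, the AP-1 motif, at 7 bases. These are held by 23.1% and 6.87% of the stretches. Neither sequence holds the letters of 4 further motifs, searched on both strands like the rest, which were the RUNX core TGTGGT, the TATA box letters TATAAA, the MITF and TFE factors' E-box CACGTG and the C/EBP motif TTGCNNAA. Matches to different motifs do not overlap, and the pair share no motif of the 9. G and C made up 57.2% of the Clec4f stretch and 43.6% of the Cd207 stretch, above 65.0% and 20.8% of all stretches. A match of letters is a description and not a binding site.

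Total counts were 11678385 to 32003205 per library. WT replicate 2 and knockout replicate 3 lay away from the rest in a principal component analysis (33.9% and 27.5% of the variance on the first 2 components). In knockout replicate 3, 7.54% of the counts fell on the ribosomal RNA gene Rn18s, against 0.0527% to 0.122% elsewhere, and mitochondrial genes took 33.2% in knockout replicate 2 and 17.3% to 22.4% in the others. Ptpn11 was read at 75.3 to 95.5 CPM (reads relative to the TMM-adjusted library size) in WT and at 70.0 to 86.2 CPM in knockout libraries. On the log2 scale knockout minus WT was -0.09 ± 0.18 (SE), with an adjusted p of 0.974 in edgeR's quasi-likelihood test. Counts of a whole gene from a fraction of many cell types are a weak check of a deletion in Kupffer cells. Across all 14077 genes tested, edgeR's quasi-likelihood test called 0 at an adjusted p under 0.05 (0%), with 650 (4.62%) at an unadjusted p under 0.05, while DESeq2 called 66 and limma voom 0.

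Clec4f was among the most abundant transcripts of the WT fraction and was lower in every knockout library. It was read at 1638, 2656, 1386 and 1887 CPM in WT replicates 1 to 4, from 30782, 51320, 16686 and 44889 reads. In knockout replicates 1 to 3 it was read at 436, 454 and 865 CPM, from 14387, 7668 and 13985 reads. The groups did not overlap, and knockout replicate 3 lay closest to the WT libraries, with WT replicate 3, the lowest of its group, 1.6 times higher. WT libraries averaged 1892 ± 549 CPM (SD, n = 4) and knockout libraries 585 ± 243 CPM (SD, n = 3), which is 3.24-fold lower (log2 fold change -1.69 ± 0.39, SE). Over the 12 pairs of a WT and a knockout library, the WT level was 1.6 to 6.1 times the knockout level, with a median of 3.40. Within groups the highest library exceeded the lowest 1.92-fold in WT and 1.98-fold in knockout libraries.

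Cd207 was a moderately abundant transcript in WT and was higher in every knockout library. It was read at 96.2, 76.5, 66.4 and 120 CPM in WT replicates 1 to 4, from 1807, 1479, 799 and 2854 reads. In knockout replicates 1 to 3 it was read at 376, 388 and 334 CPM, from 12418, 6555 and 5402 reads. The groups did not overlap, and the lowest knockout library, replicate 3, was 2.78 times the highest WT library, replicate 4. WT libraries averaged 89.8 ± 23.6 CPM (SD, n = 4) and knockout libraries 366 ± 28.3 CPM (SD, n = 3), which is 4.08-fold higher (log2 fold change 2.03 ± 0.25, SE). The knockout libraries lay close together, with a highest level 1.16 times the lowest, against 1.81 times in WT. Groups that do not overlap were seen in 429 of 14077 genes (3.05%) in the lower direction and in 426 (3.03%) in the higher direction, together 6.07%, and the choice of the pair used this contrast.

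**Figure D1:**
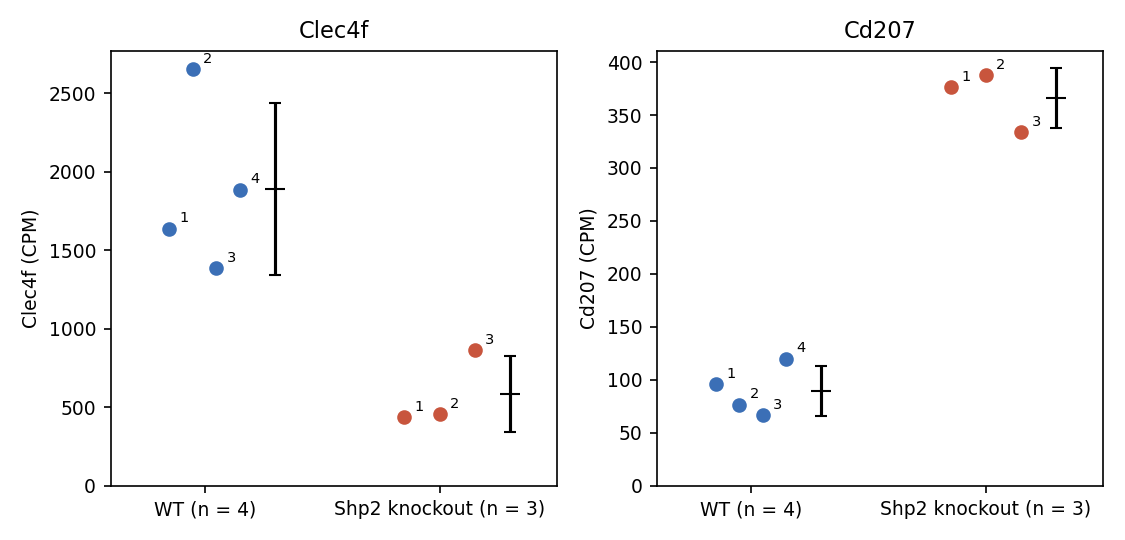
TMM-scaled CPM of Clec4f (left) and Cd207 (right) in each library, numbered by replicate, with the mean and SD of each group as bars. All 3 knockout libraries lie below the 4 WT libraries for Clec4f, between 436 and 865 CPM, and above them for Cd207, between 334 and 388 CPM.

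Counting error was small beside the spread between libraries. The coefficient of variation expected from counting alone was 0.441% to 1.14% for Clec4f and 0.897% to 3.54% for Cd207, while that between libraries was 29.0% and 41.5% (WT and knockout) for Clec4f and 26.3% and 7.74% for Cd207. Intervals of this kind cover counting error only. On the log2 CPM scale the SD within groups was 0.47 for Clec4f and 0.30 for Cd207, larger than in 68.7% and 38.8% of the genes tested, whose median was 0.35. Clec4f was thus the more variable of the pair between libraries of a group, and the libraries that stood apart carried much of this. WT replicate 2 lay 0.53 above its group's mean log2 CPM and knockout replicate 3 lay 0.64 above. In the same libraries Cd207 deviated from its group means by -0.19 and -0.13. WT replicate 3, by contrast, was low in both genes, at -0.41 for Clec4f and -0.40 for Cd207. WT replicate 4 was at 0.04 and 0.46, so that the 2 genes did not mirror each other in every WT library. Signs were opposite in WT replicate 1, at -0.17 and 0.14, and in knockout replicates 1 (-0.35 and 0.04) and 2 (-0.29 and 0.09).

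Divided by exon length, Clec4f exceeded Cd207 in all WT libraries, while the levels met in the knockout fraction. The exons of GENCODE M21 span 2.471 kb for Clec4f and 1.522 kb for Cd207. In WT libraries Clec4f stood at 766 ± 222 CPM per kb and Cd207 at 59.0 ± 15.5 CPM per kb (SD, n = 4). In knockout libraries they stood at 237 ± 98.2 and 240 ± 18.6 CPM per kb (SD, n = 3). In knockout replicates 1 and 2 Cd207 was the higher of the pair, at 247 and 255 CPM per kb against 176 and 184 for Clec4f. In knockout replicate 3 Clec4f was the higher, at 350 CPM per kb against 219. Among 13803 genes with an exon length, Clec4f ranked 25, 14, 41 and 38 by CPM per kb in WT replicates 1 to 4 and 178, 183 and 60 in knockout replicates 1 to 3. Cd207 ranked between 519 and 819 in WT and between 117 and 125 in knockout libraries. In the order of levels, knockout replicates 1 and 2 lay next to each other for both genes, at distances smaller than the SD of their group.

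**Figure D2:**
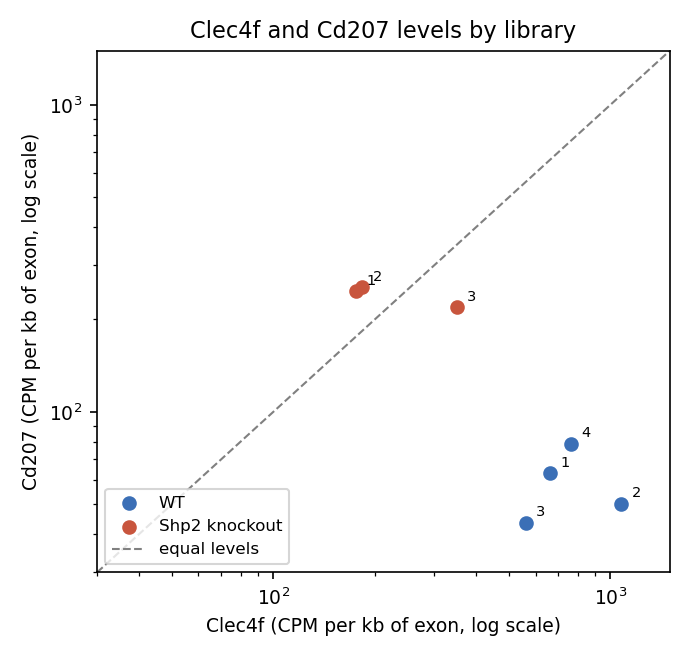
Cd207 against Clec4f in CPM per kb of exon, on log axes, for each library (numbered by replicate), with a dashed line of equal levels. The 4 WT libraries lie far below the line, knockout replicates 1 and 2 lie above it and knockout replicate 3 lies below it.

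The ratio of the 2 genes within a library does not depend on library scaling. There were 0.0587, 0.0288, 0.0479 and 0.0636 Cd207 reads per Clec4f read in WT replicates 1 to 4, and 0.863, 0.855 and 0.386 in knockout replicates 1 to 3. The groups were far apart, with WT replicate 2 the lowest of its group and knockout replicate 3 the lowest of the other. The log2 ratio averaged -4.39 ± 0.51 (SD, n = 4) over WT libraries and -0.60 ± 0.66 (SD, n = 3) over knockout libraries, a difference of 3.79 or 13.8-fold. Summed, the pair had 1452 to 2732 CPM in WT and 812 to 1199 CPM in knockout libraries, so the sum too was lower in every knockout library. Cd207 reads were 2.80% to 5.98% of the pair's reads in WT and 27.9% to 46.3% in knockout libraries.

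Other genes at the locus had smaller differences than the pair. The 6 genes with a count row on either side were taken by their order in RefSeq's annotation, and no gene with a row lies between Clec4f and Cd207. Of these 12 neighbours, 6 passed the filter on low counts and 6 did not (B230319C09Rik, the smooth muscle actin gene Actg2, Gm21284, Gm7424, 1700124L16Rik and Ankrd53, each under 0.5 CPM in all libraries). Among the 6 tested, edgeR's quasi-likelihood test called 0 over all genes and 0 at an unadjusted p under 0.05, where 4.62% of all genes had one, and the median log2 fold change was -0.07 against 0.01 over all genes. Dguok, a mitochondrial deoxyguanosine kinase gene, had a log2 fold change of 0.06 ± 0.17, the deubiquitinase gene Stambp -0.10 ± 0.21, Tex261 -0.08 ± 0.22 and Zfp638 -0.07 ± 0.19 (± SE). The sugar kinase gene Nagk averaged 30.7 ± 3.47 CPM (SD, n = 4) over WT libraries and was at 30.9, 31.3 and 61.0 CPM in knockout replicates 1 to 3, so its log2 fold change of 0.42 ± 0.26 (SE) was carried by replicate 3 and was 0.02 without it. Paip2b, which encodes an inhibitor of the poly(A)-binding protein, was at 62.6, 57.8, 59.8 and 56.8 CPM in WT and at 50.5, 48.1 and 39.0 CPM in knockout libraries. Its groups did not overlap, and the log2 difference was -0.37 ± 0.17 (SE), with an adjusted p of 0.956 and an unadjusted p of 0.0521 in edgeR's quasi-likelihood test. Without WT replicate 2, 1 of the neighbours had an unadjusted p under 0.05, and 1 also had one in DESeq2 and in limma voom, lower each time. The difference of 3.72 between the log2 fold changes of Clec4f and Cd207 ranked 5 among 14027 neighbouring pairs of tested genes, whose median was 0.28, and 21 pairs (0.15%) had groups that did not overlap in opposite directions. The pair was chosen for this, so its rank is a description. That count of pairs was 79, 41, 60 and 67 without WT replicates 1 to 4, and 78, 64 and 164 without knockout replicates 1 to 3, since fewer libraries separate more easily.

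**Figure D3:**
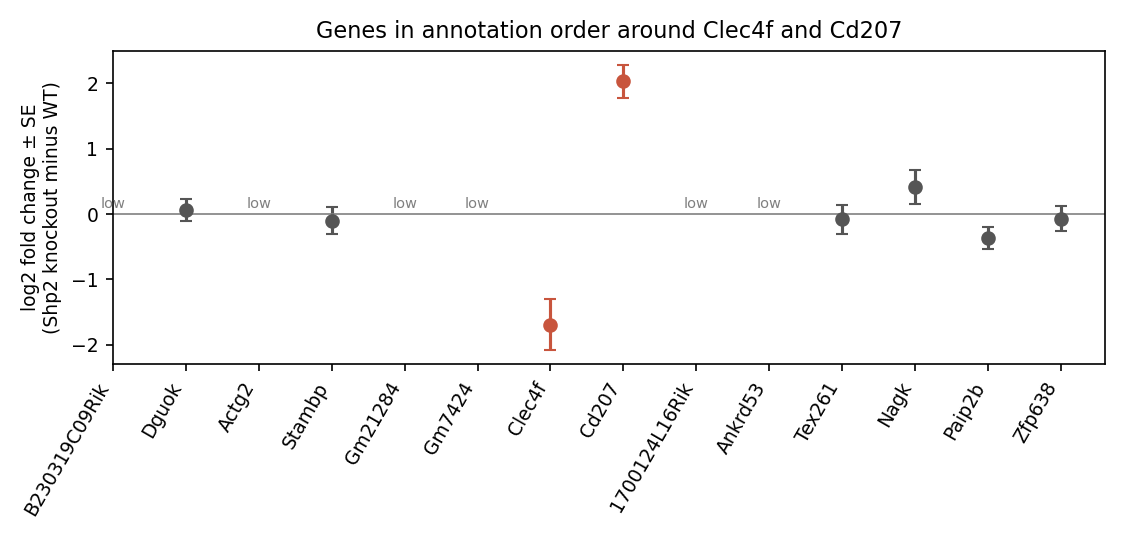
Log2 fold changes (knockout minus WT, ± SE) of the genes with a count row around Clec4f and Cd207, in annotation order and not to scale, with "low" marking genes below the filter on counts. Clec4f at -1.69 and Cd207 at 2.03 stand out from the 6 neighbours tested, which lie between -0.37 and 0.42.

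Part of the genes known from resident Kupffer cells lay lower in the knockout fraction, on the side of Clec4f and not of Cd207. Of 15 such genes tested, without the pair, edgeR's quasi-likelihood test called 0 over all genes, while 6 were lower at an unadjusted p under 0.05, or 40% against 2.35% of all genes in that direction, and 0 were higher. The median log2 fold change was -0.20 against 0.01 over all genes. The list was chosen with earlier results of these data known, so its share is a description. The 6 were the haemoglobin scavenger receptor gene Cd163 (-3.41 ± 0.47, SE), the complement gene C6 (-1.50 ± 0.33), Timd4, a receptor gene for dying cells (-2.24 ± 0.53, and -3.25 without knockout replicate 1), the folate receptor gene Folr2 (-0.63 ± 0.21), the complement receptor gene Vsig4 (-0.90 ± 0.32) and the potassium channel gene Kcna2 (-0.46 ± 0.17), the last named after its value was seen. DESeq2 called 3 of the list over all genes (C6, Cd163 and Timd4), all lower. Without knockout replicate 2, 3 genes of the list had an unadjusted p under 0.05 in edgeR. The summed level of the list was 3640 to 7760 CPM in WT and 3380 to 4260 CPM in knockout libraries, so the sums overlapped and WT replicate 2 was the richest. The scavenger protein gene Cd5l, at 1360 ± 561 and 1180 ± 372 CPM (SD, n = 4 and n = 3), differed by -0.20 ± 0.38 on the log2 scale (SE; adjusted p = 0.973 in edgeR), and by 0.12 without WT replicate 2. No gene of the list was at 0 in any library. Log2 fold changes were below 0 in 11 of the 15 genes and above 0 in 4. The 4 were Id3 (0.54 ± 0.42, SE), Fabp7 (0.12 ± 0.17), Spic (0.11 ± 0.17) and Marco (0.10 ± 0.51), named after their values were seen. Genes of other cells were also lower at an unadjusted p under 0.05, among them Tat, Klrb1c and Prf1, described with their lists after the monocyte genes. The share of Kupffer cells in the libraries was not measured, and a lower share, an effect of the Cre transgene on Clec4f and an effect of Shp2 loss on it cannot be told apart in this design.

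Set against single macrophage genes within each library, Cd207 ratios were higher in all knockout libraries with each of 5 denominators. Clec4f ratios were lower in all of them except against Timd4. There the groups overlapped and the mean log2 ratio was 0.84 higher in knockout libraries. The gap between the 2 members is the same whatever the denominator, so each ratio is read by itself. Vsig4 (log2 fold change -0.90 ± 0.32, SE) and Timd4 (-2.24 ± 0.53) were themselves lower, which raises the ratios to them. Cd5l (-0.20 ± 0.38), Adgre1 (-0.59 ± 0.40) and Csf1r (-0.65 ± 0.46) also lay below 0, which acts in the same direction. The pair was chosen for its opposite directions, so the ratios are a description. Clec4f reads per Vsig4 read were 2.35, 2.18, 2.32 and 2.81 in WT replicates 1 to 4 and 0.929, 1.14 and 2.09 in knockout replicates 1 to 3. The WT libraries were close together although WT replicate 2 held far more Vsig4 than the rest, and knockout replicate 3 came near to them without overlap. Clec4f reads per Cd5l read were 1.23 to 1.62 in the WT and 0.442 to 0.540 in the knockout libraries, a difference in mean log2 ratio of -1.56. Clec4f reads per Timd4 read were 6.42 to 8.85 in WT, and 4.06, 23.4 and 25.0 in knockout replicates 1 to 3, since Timd4 itself was at 107, 19.4 and 34.6 CPM there. Clec4f reads per read of Csf1r, the receptor gene of the macrophage growth factor CSF1, were 2.61 to 5.04 in the WT and 1.72 to 1.84 in the knockout libraries, and those per read of Adgre1, the gene of F4/80, were 3.89 to 7.65 and 1.87 to 3.85. Csf1r and Adgre1 were added as denominators after their values were seen. Cd207 reads per Vsig4 read were 0.0627 to 0.179 in the WT and 0.802 to 0.971 in the knockout libraries. Per Cd5l read they were 0.0353 to 0.103 and 0.208 to 0.416, per Timd4 read 0.204 to 0.562 and 3.5 to 20, per Adgre1 read 0.112 to 0.486 and 1.49 to 1.62, and per Csf1r read 0.0752 to 0.321 and 0.690 to 1.59. For Cd207 the groups did not overlap with any of the 5 denominators.

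**Figure D4:**
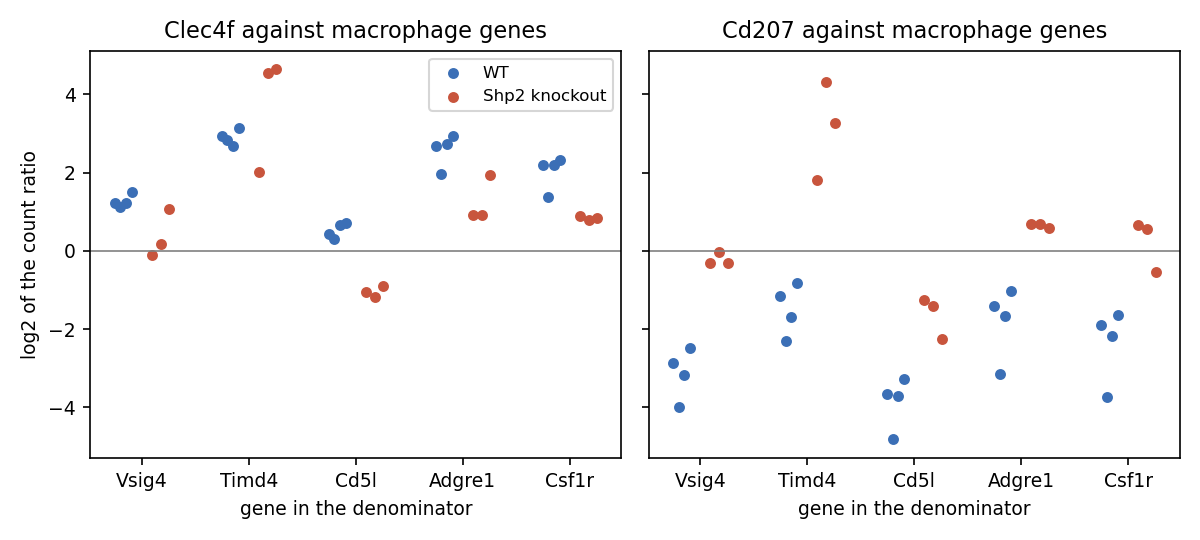
Log2 of the reads of Clec4f (left) and Cd207 (right) per read of 5 macrophage genes, a point for each of 4 WT and 3 knockout libraries. Cd207 ratios are higher in all knockout libraries for each denominator, by 2.23 (Cd5l) to 4.63 (Timd4) on average, and Clec4f ratios are lower in all knockout libraries except against Timd4.

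Cd14 had the lowest log2 fold change of the general macrophage genes, and Cx3cr1 the highest of the genes of monocytes and recruited macrophages. Of 12 general macrophage genes, edgeR called 0 over all genes and 1 had an unadjusted p under 0.05, Cd14, a coreceptor gene for bacterial lipopolysaccharide (-1.54 ± 0.51, SE, and -0.96 without WT replicate 2), or 8.33% of the list against 4.62% of all genes. Their median log2 fold change was -0.28, their summed level was 3350 to 5480 CPM in WT and 3740 to 4660 CPM in knockout libraries, and none was at 0. Adgre1 was at -0.59 ± 0.40 and Aif1 at 0.35 ± 0.20 (log2, ± SE). For Cd14 the groups overlapped, with WT replicate 1 at 13.4 CPM and knockout replicates 1 to 3 at 11.1, 10.6 and 19.8 CPM. That count of 1 was 2 without WT replicate 1 and 3 without knockout replicate 3. Of 12 genes of monocytes and recruited macrophages, edgeR called 0 over all genes, while 3 were higher at an unadjusted p under 0.05 (25.0% against 2.27% of all genes in that direction) and 0 were lower, with a median of 0.09. They were the fractalkine receptor gene Cx3cr1 (1.92 ± 0.32, SE), Ms4a7 (1.10 ± 0.31) and Plac8 (0.84 ± 0.37), and Vcan was at 0.63 ± 0.44. DESeq2 called 1 of the list over all genes, Cx3cr1. This list too was chosen with earlier results of these data known, so its share is a description. Ccr2, the receptor gene by which monocytes leave the marrow, was at 93.8 ± 20.9 CPM (SD, n = 4) and 101 ± 39.0 CPM (SD, n = 3), a log2 fold change of 0.11 ± 0.29 (SE), and Ly6c2 was at -0.09 ± 0.31, both named after their values were seen. The summed level of the list was 531 to 885 CPM in WT and 677 to 1420 CPM in knockout libraries, with none at 0 in any library. Its part in the level of Cd207 was not tested.

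Marker lists of the other cells in the fraction also differed in part. EdgeR's quasi-likelihood test called 0 genes of these lists over all genes, and the genes named from them were chosen after their values were seen. The lists themselves were chosen with earlier results of these data known. Of 6 neutrophil genes tested of 7, all 6 had a log2 fold change above 0 with a median of 0.92, and 2 were higher at an unadjusted p under 0.05 (33.3% against 2.27% of all genes in that direction). These were Csf3r, the receptor gene of a neutrophil growth factor (0.47 ± 0.18, SE), and Retnlg (1.25 ± 0.51). The neutrophil list summed to 57.6 to 134 CPM in WT libraries and to 98.9 to 376 CPM in knockout libraries, with no gene at 0. Its count of 2 was 0 without WT replicate 3 or knockout replicate 1, 1 without WT replicate 2 or 4, and 5 without knockout replicate 3.

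Of 10 lymphocyte genes, 3 had an unadjusted p under 0.05 (30% against 4.62% of all genes), 2 of them lower. The lower genes were the natural killer cell receptor gene Klrb1c (-0.88 ± 0.33, SE) and the perforin gene Prf1 (-0.69 ± 0.29). Leaving out WT replicate 1 or 3 or knockout replicate 1 lowered this count of 3 to 1. The lymphocyte list summed to 220 to 437 CPM and 278 to 406 CPM. Of 8 hepatocyte genes 1 was lower at an unadjusted p under 0.05 (12.5% against 2.35% of all genes in that direction). This was the tyrosine aminotransferase gene Tat, at 250, 832, 1560 and 1280 CPM in WT and at 196, 375 and 181 CPM in knockout replicates (-1.97 ± 0.57, SE), so its groups overlapped. The hepatocyte list summed to 19800 to 59500 CPM in WT libraries and to 18100 to 40700 CPM in knockout libraries. Of 7 stellate cell genes 1 was higher (14.3% against 2.27% of all genes in that direction), the collagen gene Col3a1 (0.58 ± 0.20, SE). The hepatocyte and stellate cell shares thus rest on 1 gene each. Of 9 endothelial and 4 erythroid genes tested, 0 had an unadjusted p under 0.05. The part of these cells in the levels of Clec4f and Cd207 was not tested.

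Genes of cDC1 and Langerhans cells, the other cells known to make langerin, had median log2 fold changes of -0.05 in both lists. Of 11 cDC1 genes, edgeR called 0 over all genes and 1 had an unadjusted p under 0.05 (9.09% against 4.62% of all genes). This was the transcription factor gene Batf3 (1.55 ± 0.51, SE), read at 0.673 to 1.91 CPM in WT and at 2.54, 1.95 and 7.36 CPM in knockout replicates 1 to 3, and 0 genes of the list passed without knockout replicate 3, where Batf3 was at 0.76. Among defining markers, the chemokine receptor gene Xcr1 was at 8.83 ± 1.74 and 8.18 ± 3.01 CPM (SD, n = 4 and n = 3), with a log2 fold change of -0.11 ± 0.30 (SE). The lectin gene Clec9a was at 71.7 ± 17.2 and 77.5 ± 13.1 CPM, with a log2 fold change of 0.11 ± 0.22 (SE). Flt3 (-0.45 ± 0.32), Zbtb46 (-0.25 ± 0.21) and Cadm1 (-0.17 ± 0.26) were also measured (log2, ± SE). The cDC1 list summed to 393 to 532 CPM in WT and 408 to 463 CPM in knockout libraries, ranges that overlap, with no gene at 0. Of 11 Langerhans cell genes tested of 12, edgeR called 0 over all genes and 0 at an unadjusted p under 0.05, with 1 higher without WT replicate 2. Their sum was 909 to 1790 CPM in WT and 916 to 1190 CPM in knockout libraries. Most of these genes are also expressed by macrophages, endothelium or bile duct cells. Epcam, the adhesion molecule gene of Langerhans and bile duct cells, was at 3.11 ± 0.64 and 3.19 ± 0.51 CPM (SD). Cdh1 (0.49 ± 0.30), Csf1r (-0.65 ± 0.46), Runx3 (-0.31 ± 0.27) and Tgfbr1 (-0.18 ± 0.18) had the smallest p of the list (log2, ± SE).

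The 19 related lectins listed had log2 fold changes from -1.32 to 0.46, against -1.69 for Clec4f and 2.03 for Cd207. Of these lectins of the asialoglycoprotein receptor, DC-SIGN and mannose receptor groups and their relatives, edgeR called 0 over all genes, DESeq2 called 0 and 1 had an unadjusted p under 0.05 in edgeR (5.26% against 4.62% of all genes). Their median log2 fold change was -0.08. The pair was chosen for its opposite directions, so its distance from the list is a description. The list does not hold all C-type lectins, and Clec4b1, outside it, had a log2 fold change of 1.61. The scavenger lectin gene Colec12 averaged 29.3 ± 9.01 CPM (SD, n = 4) over WT and 15.2 ± 1.83 CPM (SD, n = 3) over knockout libraries, without overlap, with a log2 difference of -0.95 ± 0.26 (SE; adjusted p = 0.733 in edgeR). Cd209f, of the DC-SIGN family, was at 2.13 to 5.89 CPM in WT and at 1.51, 0.296 and 3.15 CPM in knockout replicates 1 to 3 (-1.32 ± 0.60, SE). Without knockout replicate 3 its log2 fold change was -2.07, with -2.09 for Clec4f under the same setting. Its relative Cd209g (-0.98 ± 0.65) was read under 1.5 CPM and Fcer2a, the low-affinity IgE receptor gene of B cells, was at 0.46 ± 0.28 (log2, ± SE). Reads of the near-identical Cd209 genes may have been dropped or split in counting. Leaving out WT replicate 1 or 4 or knockout replicate 2 made this count of lectins 2, and leaving out knockout replicate 3 made it 5.

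Regulators known in mice to set the Kupffer cell programme, among them genes of the Notch and TGF-beta signals and of PU.1, RBPJ and nuclear receptors, were also read. Genes of AP-1, C/EBP and RUNX factors were not in the list. Of 19 tested, edgeR called 0 over all genes, DESeq2 called 0 and 1 had an unadjusted p under 0.05 in edgeR (5.26% against 4.62% of all genes), with a median log2 fold change of 0.04. This was the transcription factor gene Zeb2, which averaged 105 ± 20.1 CPM (SD, n = 4) over WT and 151 ± 15.1 CPM (SD, n = 3) over knockout libraries, with a log2 difference of 0.52 ± 0.21 (SE; adjusted p = 0.956 in edgeR). WT replicate 2 and knockout replicate 3 both stood at 134 CPM, so the groups met there. Nr1h2 (0.62 ± 0.43) and Id1 (-0.48 ± 0.33) followed by p, and Nr1h2 was -0.31 without WT replicate 2 and knockout replicate 3 together. Spi1, the gene of PU.1, was at 0.27 ± 0.27, Rbpj at -0.17 ± 0.24, the Notch ligand gene Dll4 at 0.11 ± 0.40 and the liver X receptor gene Nr1h3 at -0.02 ± 0.28 (log2, ± SE), all named after their values were seen. Zeb2 kept an unadjusted p under 0.05 without WT replicate 2 or knockout replicate 3, and lost it without any other single library (p between 0.0623 and 0.0991, edgeR's quasi-likelihood test). The count of regulators was 0 without WT replicate 3 or 4 or knockout replicate 1. Without WT replicate 1 it was 1, a lower gene in place of Zeb2. Without knockout replicate 3 it was 4, with Zeb2 higher and 3 lower, which were Id1 (-0.88) and the receptor genes Notch1 (-0.54) and Acvrl1 (-0.81), of which Notch1 and Acvrl1 were named after their values were seen.

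The genes most like each member were those of at least 2 CPM on average whose log2 CPM, centred on the mean of the 7 libraries, had the smallest root mean square (RMS) difference from the member's own profile. Both the difference between groups and the spread within them enter this measure, and no test was made. For Clec4f these were Angptl7 (RMS difference 0.28 log2 units), the phospholipase gene Gdpd1 (0.34), C6 (0.35), Fsd2 (0.39) and the ficolin gene Fcna (0.41), a secreted lectin that starts the complement lectin pathway. C6 was read at 211, 481, 198 and 299 CPM in WT and at 107, 99.7 and 108 CPM in knockout libraries, and Fcna at 185, 319, 190 and 227 CPM and at 102, 83.1 and 187 CPM. Like Clec4f, both were highest in WT replicate 2, and Fcna also shared the high value of knockout replicate 3. For Cd207 they were the dendritic cell lectin gene Clec4b1 (0.28), the collagenase gene Mmp13 (0.32), Cx3cr1 (0.38), Sirpb1a (0.43) and the interferon-induced gene Ifi27l2a (0.45). Clec4b1, with a log2 fold change of 1.61, was read at 7.82, 3.93, 3.57 and 7.06 CPM in WT and at 16.3, 20.4 and 15 CPM in knockout libraries. Cx3cr1 was read at 5.85, 3.36, 3.24 and 4.96 CPM in WT and at 12.2, 13.7 and 23.9 CPM in knockout libraries. Like Cd207, both were lower in WT replicates 2 and 3 than in WT replicates 1 and 4. Such likeness follows from how these genes were chosen. Some were read at low levels. Angptl7 and Fsd2 averaged 1.30 and 1.07 CPM over knockout libraries, and Mmp13 averaged 1.25 CPM over WT libraries.

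**Figure D5:**
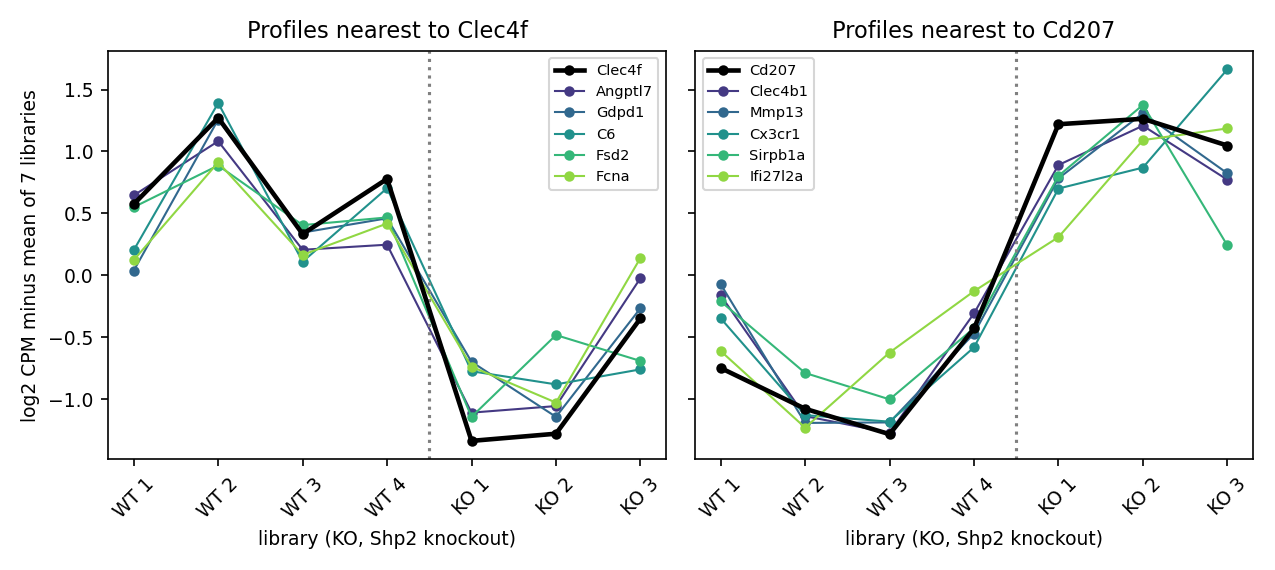
Log2 CPM minus the mean of the 7 libraries for Clec4f (left) and Cd207 (right), drawn in black, and for the 5 genes nearest to each by RMS difference, with a dotted line between the 4 WT and the 3 knockout (KO) libraries. Chosen for their likeness, the genes nearest to Clec4f share its peak in WT replicate 2. Those chosen for likeness to Cd207 lie higher in the knockout than in the WT libraries, as Cd207 does.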

How the data were processed

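RNA was sequenced from liver nonparenchymal cells of 4 WT and 3 knockout libraries. TruSeq RNA v2 libraries were made from total RNA, per the labels' protocols. The deposited table gives raw counts, whole numbers of reads, for 20354 genes in each library. FastQC 0.11.9, STAR 2.7.10a, SAMtools 1.9, featureCounts 2.0.3 and GRCm39 are named in the submitters' processing notes. Annotation and settings were not stated there, so reads of near-identical or overlapping genes may have been dropped or split.

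From these counts, edgeR 4.0.16 (R 4.3.3; TMM factors, filterByExpr with a minimum count of 10 and total of 15, glmQLFit with robust estimation, glmQLFTest, group as the only term) tested 14077 genes, adjusted by Benjamini-Hochberg with a threshold of 0.05. Each standard error is the fold change divided by the root of the F statistic. Log2 CPM used a prior count of 2. A count of 3, which a count of 0 can hide, equals 0.0937 to 0.257 CPM. No library was a copy of another (chi-square per degree of freedom 38.0 to 294 over all pairs). The labels number the libraries without saying that each is a separate mouse, so p-values measure the spread between libraries, which may be technical. Tested on simulated data for this comparison (14076 genes), edgeR recovered 37 of 100 changes of 2-fold and 99 of 100 of 4-fold, and made 8 false calls. In the 7 libraries themselves edgeR's quasi-likelihood test called 0 genes. There Cd163 (log2 fold change -3.41) and Timd4 (-2.24) had an adjusted p of 0.184 and 0.565 in that test. How often changes of this size are found in these libraries was not tested.

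RefSeq's GRCm38.p6 table, which matched 20256 symbols and 18 synonyms, gave gene order and the promoter stretches, and GENCODE M21 (GRCm38) gave exon lengths. Their build differs from that of the counts. The 9 motifs were chosen with the sequences in view, and a further motif, of interferon regulatory factors, was searched first and is not reported here. The members and gene lists were chosen with earlier results of these data known. The text names the members, Ptpn11, all locus neighbours, the 4 genes of smallest p in each of 7 lists, the 5 nearest in pattern, Vsig4, Timd4, Cd5l, Xcr1, Clec9a and Epcam, and says where others were added. Some genes that this rule takes are not reported here. Alternatives were DESeq2 1.42.0, limma 3.58.1 (voom), other scalings and filters, and leaving out libraries, which for the lists of other cells was added after seeing the data.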

Additional observations from a re-analysis of the deposited data

Results flagged for a closer look

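Among the 4 WT libraries, 5 of 50 results tested had 1 library far from the other 3, by the gap to its neighbour relative to the range (Dixon's critical value of 0.829), where chance alone gives about 1 in 20. All 5 were high values of WT replicate 2. Timd4 was at 376 CPM there against 213 to 216 CPM in the other WT libraries. Vsig4 was at 1220 CPM against 597 to 696 CPM, Adgre1 at 683 CPM against 211 to 256 CPM and Csf1r at 1020 CPM against 303 to 374 CPM. The locus neighbour Tex261 was at 75.5 CPM against 49.3 to 53.6 CPM. Clec4f and Cd207 themselves were not among them.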

How the results depend on the processing

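The log2 fold changes of the 2 members kept their direction under all 16 alternatives. They lay between -2.09 (without knockout replicate 3) and -1.49 (without WT replicate 2) for Clec4f and between 1.91 and 2.2 for Cd207. The difference in log2 ratio lay between 3.55 and 4.17 under 9 alternatives. Leaving out each library in turn gave 505 to 845 genes at an unadjusted p under 0.05, 41 to 164 neighbouring pairs moving apart, 0 to 1 locus neighbours, 3 to 6 Kupffer cell genes, 1 to 3 general macrophage genes, 0 to 1 cDC1 genes, 0 to 1 Langerhans cell genes, 1 to 5 related lectins and 0 to 4 regulators. For lists of other cells, an alternative added after seeing the data, it gave 0 to 5 neutrophil, 1 to 4 lymphocyte, 1 to 2 hepatocyte, 1 to 2 stellate cell, 0 to 1 endothelial and 0 erythroid genes. Without WT replicate 2 and knockout replicate 3 together there were 1078 genes, 289 pairs, 1 locus neighbour, 4 general macrophage genes, 0 cDC1 genes, 2 Langerhans cell genes, 4 related lectins and 4 regulators. With library size only there were 10 pairs and 0 regulators. With DESeq2's size factors, the DESeq2 Wald test or limma voom there were 1 locus neighbour and 2 related lectins, and with no filter 2 related lectins. The cause of these moves was not tested, except that fewer libraries overlap less often. Over all genes, an adjusted p under 0.05 was reached by 3 genes with library size only or no filter, by 2 without WT replicate 2 and knockout replicate 3 together and by 66 in DESeq2. Of the 5 genes nearest to Clec4f, 2 remained with Pearson's correlation and 2 with a minimum of 10 CPM, and of those nearest to Cd207, 1 and 2. No paired analysis was possible because the labels give the groups no shared replicate numbers. Depth limits the genes under 1 CPM more than the members.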
